A study of Mus musculus with 22 samples.

Results

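The effect of oxidised low-density lipoprotein (ox-LDL) that splenic monocytes and cultured macrophages had in common was read from all 22 libraries of the series. It is the treatment term of a model with cell type and treatment as additive terms. The 11 ox-LDL libraries (monocytes 7 to 11 and macrophages G to L) were set against the 11 vehicle libraries (monocytes 1 to 6 and macrophages A to E). A gene is said to be called when the adjusted p of that term was under 0.05. Unless a sentence names another setting, calls are those of this model on all 22 libraries. A called gene is said to have moved the same way when its log2 fold change also had the same sign in separate fits of each cell type, with an unadjusted p under 0.05 in each. Of 17466 genes tested, 246 were called and 191 (1.09%) moved the same way, 116 of them higher (0.664%) and 75 lower (0.429%) with ox-LDL. Of the 191, 172 are protein-coding genes and 14 are pseudogenes.

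Oxidised low-density lipoprotein is taken up by phagocytes through scavenger receptors, and the cholesterol that reaches the lysosome is stored as ester in lipid droplets or exported through ABC transporters. Macrophages loaded in this way are the foam cells of the atherosclerotic plaque. Oxidised lipids are known to switch on the antioxidant programme of the transcription factor NRF2, oxysterols are ligands of the LXR receptors, and sterol entering the endoplasmic reticulum holds back the SREBP2 programme of cholesterol synthesis.

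Bulk RNA was sequenced from spleen cells of wild-type male C57BL/6 mice, all of one genotype. The monocytes were primary isolates. The macrophages came from such monocytes held for 5 days in 200 ng/mL of phorbol 12-myristate 13-acetate (PMA), so cell type and PMA culture cannot be told apart. In each cell type the vehicle group was compared with ox-LDL at 50 µg/mL for 24 h, in 6 and 5 monocyte libraries and in 5 and 6 macrophage libraries. The labels give 1 dose and 1 time, no age, and are silent on whether libraries of one group were separate mice or cultures, so the p-values measure only the spread between these libraries, which may be technical.

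Library totals ran from 37330389 to 50257111 counts. Levels below are CPM after TMM scaling, that is, counts relative to a common library total. The summed level of 12 macrophage markers was 2587 to 5749 CPM in the monocyte libraries and 11925 to 16180 CPM in the macrophage libraries, but the 12 monocyte markers overlapped between the cell types (746 to 2854 and 313 to 1090 CPM). The monocyte libraries also held neutrophil markers at 5463 to 49063 CPM, with vehicle libraries 5 and 6 and ox-LDL libraries 10 and 11 highest, and erythroid markers at 485 to 913 CPM in vehicle libraries 1 and 2 and ox-LDL library 7 and at 6647 to 14455 CPM in the others. In the macrophage libraries the same sums were 132 to 338 and 3.65 to 27.8 CPM. The 12 dendritic cell markers summed to 7861 to 13712 CPM in the monocyte libraries, above the sum of the monocyte markers there. In the macrophage libraries they summed to 411 to 524 CPM. Neutrophil-rich and neutrophil-poor monocyte libraries occurred with both treatments. Fewer cells of a type and less RNA per cell cannot be told apart in bulk samples. Macrophage libraries A, G, H and K also stood together, apart from the others, in a principal component analysis. This set holds 1 vehicle and 3 ox-LDL libraries. Where 3 library sets are named below as a covariate, they were chosen after seeing the data and are, in monocytes, libraries 1, 2 and 7, libraries 3, 4, 8 and 9, and libraries 5, 6, 10 and 11, and in macrophages A, G, H and K, then C, D, I and J, and then B, E and L. With this covariate 910 genes were called and 531 moved the same way.

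The shared effect was small in most genes. The 246 calls were 1.41% of the genes tested, 132 of them higher (0.756%) and 114 lower (0.653%). A change of at least 2-fold was reached by 10 of the higher and 13 of the lower genes. The median log2 fold change of the 116 genes that moved higher was 0.60 in monocytes and 0.35 in macrophages, and that of the 75 that moved lower was -0.50 and -0.49. The effect was larger in monocytes in 105 of the 116 and in 37 of the 75. Each gene had to pass in both separate fits, and the monocyte libraries spread more (median residual SD 0.29 against 0.18 log2 units). What part this filter had in the sizes was not tested. Library scaling shifted the balance of directions. When libraries were scaled by total counts alone, 80 genes were called higher and 152 lower, so 34.5% of the calls were higher where TMM gave 53.7%. Without vehicle macrophage library E the number called was 150 and the number moving the same way was 123, and without macrophage libraries A, G, H and K they were 123 and 110.

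The separate fits of the cell types share no library. At an unadjusted p under 0.05, 382 genes passed in both with the same sign (2.19% of those tested) and 42 with opposite signs. The macrophage fit alone called 326 genes (1.87%), and 263 of them (80.7%) had the same sign in monocytes, while 57.7% of all genes with an estimate in both had the same sign. That macrophage count was 140, 146, 179 and 161 without libraries B, E, H and L in turn. The monocyte fit alone called 4 genes (0.0229%), namely Cd36, Akr1b8, Mmp12 and Plin2. With any one of the 11 monocyte libraries left out it called 0 to 8 genes by edgeR, while 1262 to 2324 genes had an unadjusted p under 0.05. The spread between libraries differed, with a median residual SD of 0.29 log2 units in monocytes and 0.18 in macrophages. Of the 191 genes that moved the same way, 107 were called in neither separate fit. Across all genes the effects in the cell types were only weakly related (Pearson r = 0.11, Spearman rho = 0.19, over the 17135 genes with an estimate in both, which are not independent replicates).

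**Figure D1:**
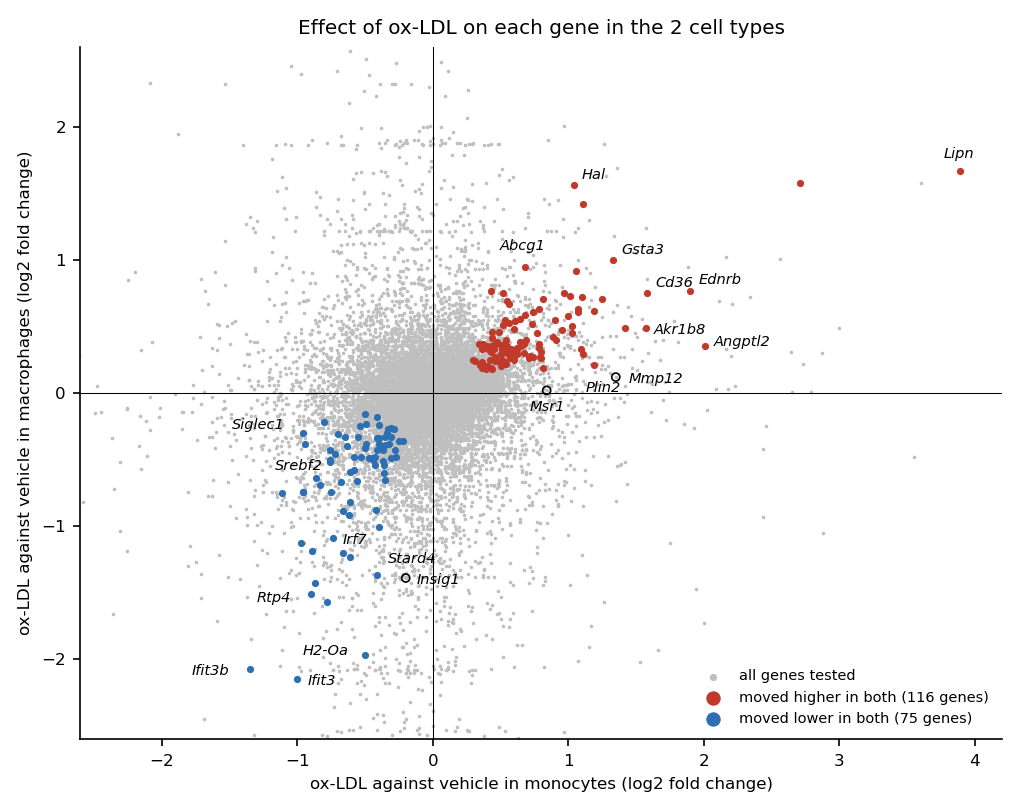
Each point is a gene, with its ox-LDL log2 fold change in monocytes on the x axis and in macrophages on the y axis (17135 genes with an estimate in both, 149 of them outside the axes). Coloured points are the genes that moved the same way, and open rings are Insig1, Msr1 and Mmp12, which did not. The coloured points lie in the upper right (116) and lower left (75), and many of the higher genes, Cd36, Akr1b8 and Plin2 among them, lie further along the monocyte axis. Libraries spread more in monocytes, and what part the filter had in these sizes was not tested.

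Some genes of antioxidant defence rose in both cell types. Among 10 genes of the thioredoxin and peroxide system, 3 rose and moved the same way, among 19 of glutathione synthesis and transfer 7 rose and 6 moved the same way, among 15 of carbonyl reduction and NADPH supply 4 rose and 3 moved the same way, and among 10 of ferritin, heme and iron 3 rose and moved the same way. No gene of these lists was called lower, while with 3 library sets as a covariate 1 glutathione gene was. At an unadjusted p under 0.05, 4, 9, 5 and 9 genes of the lists were higher and none lower in monocytes. In macrophages 6, 10, 6 and 5 were higher, and 1, 2, 0 and 0 were lower. The shares of all genes tested were 5.07% higher and 5.03% lower in monocytes, and 6.07% and 6.57% in macrophages. The lists' median log2 fold changes were 0.18, 0.46, 0.14 and 0.51 in monocytes and 0.50, 0.30, 0.14 and 0.29 in macrophages, against 0.00 in both over all genes tested. Without macrophage libraries A, G, H and K the numbers called higher were 3, 2, 3 and 2.

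Srxn1, the sulfiredoxin that repairs over-oxidised peroxiredoxins (ENSMUSG00000032802, chr2:152105516-152111376, GRCm38), had the lowest p-value of all genes tested. Its level was 174, 192 and 253 CPM (lowest, median and highest) in the 6 vehicle monocyte libraries and 288, 319, 302, 372 and 399 CPM in the 5 ox-LDL monocyte libraries. In macrophages it was 206, 204, 210, 220 and 208 CPM with vehicle and 262, 329 and 370 CPM (lowest, median and highest of 6) with ox-LDL. Every ox-LDL library lay above every vehicle library in both cell types. Of all genes tested 31 (0.177%) had groups apart the same way in both. The shared log2 fold change of Srxn1 was 0.69 ± 0.08 (SE, adjusted p = 9.87e-05), with 0.78 ± 0.14 in monocytes and 0.63 ± 0.08 in macrophages.

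Prdx1, the peroxiredoxin that Srxn1 repairs, was at 903, 1265 and 1603 CPM in vehicle monocytes (lowest, median, highest) and at 1474, 2542, 2154, 2207 and 4582 CPM with ox-LDL. In macrophages its level was 2749, 2422, 2335, 2132 and 1937 CPM with vehicle and 3247, 3500 and 3958 CPM with ox-LDL. The macrophage groups were apart, while 1 ox-LDL monocyte library fell within the vehicle range. Prdx1 rose by a shared log2 fold change of 0.83 ± 0.15 (adjusted p = 0.00351). Its pseudogenes Gm7204 and Gm21399 rose by 0.84 and 0.86, and the tables do not tell which of these near-identical copies the reads came from. Cat, the catalase that splits hydrogen peroxide, was at 236, 368 and 405 CPM in vehicle monocytes and at 533, 549, 481, 427 and 462 CPM with ox-LDL. In macrophages Cat was at 1020, 1019, 827, 850 and 1052 CPM with vehicle and at 1208, 1355 and 1644 CPM with ox-LDL. The groups did not overlap in either cell type, and the log2 fold changes of Cat were 0.53 in monocytes and 0.55 in macrophages (shared adjusted p = 0.00203). Txnrd1, the reductase that recharges thioredoxin, had a log2 fold change of 0.23 in monocytes and 0.54 in macrophages and was not called (adjusted p = 0.0692), although it was called higher under 8 of 34 alternatives (lowest adjusted p = 0.00454).

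Of the glutathione genes, Gclc, the catalytic subunit of the enzyme that makes the precursor of glutathione, rose by a log2 fold change of 0.51 (adjusted p = 0.0212). The glutathione transferases Gstm1, Gstm3 and Gsta3 rose by 0.90, 0.98 and 1.14, although Gstm genes share sequence and their reads may be split among copies. Gsta3 was at 0.505, 1.02 and 2.64 CPM in vehicle monocytes and 1.87, 2.58, 1.78, 2.82 and 6.93 CPM with ox-LDL, so these groups overlapped at low levels. In macrophages Gsta3 was at 15.5, 11.8, 5.99, 7.32 and 11.8 CPM with vehicle and at 14.6, 20.7 and 31.8 CPM with ox-LDL, and the groups again overlapped. Gclm, the regulatory subunit of the same synthetic enzyme as Gclc, had log2 fold changes of 0.81 in monocytes and 0.57 in macrophages and was not called (adjusted p = 0.0783). Gstm1 and Gstm3 were each called in all alternatives except the one without macrophage libraries A, G, H and K (adjusted p = 0.0792 and 0.111).

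Akr1b8, an aldo-keto reductase that clears lipid aldehydes, was at 9.46, 13.5 and 15.6 CPM in vehicle monocytes and at 25.2, 38.9, 35.3, 33.3 and 59.7 CPM with ox-LDL, with no overlap. In macrophages Akr1b8 was at 37.1, 32.0, 26.1, 30.6 and 35.4 CPM with vehicle and at 36.9, 46.0 and 51.7 CPM with ox-LDL, where 1 ox-LDL library was just under the highest vehicle value. The log2 fold change was 1.57 ± 0.21 in monocytes and 0.49 ± 0.11 in macrophages, and the interaction between treatment and cell type was not called (adjusted p = 0.137). Nqo1, the quinone reductase, rose by a log2 fold change of 0.60, and Me1, the malic enzyme that supplies NADPH, by 0.78. Me1 was not called without monocyte libraries 5, 6, 10 and 11 (adjusted p = 0.0551). Ftl1, the ferritin light chain, and Tfrc, the transferrin receptor, rose by 0.41 and 0.53. The median of the pseudogene Ftl1-ps1 rose as well, from 345 to 433 CPM in monocytes and from 359 to 468 CPM in macrophages. Which of these copies the reads came from is not known. Hmox1, the heme oxygenase, rose by 0.41 at the edge of the threshold (adjusted p = 0.048) and lost its call under 22 of 34 alternatives. Fth1, the ferritin heavy chain, was not called (log2 fold change 0.33, adjusted p = 0.192). Of the 8 genes of NRF2 and its partners none was called by edgeR with all libraries. With 3 library sets as a covariate, and likewise without monocyte libraries 5, 6, 10 and 11, 1 of the 8 was called lower. In the separate fits 1 was higher and 1 lower in macrophages at an unadjusted p under 0.05. Of all genes tested 5.07% were higher and 5.03% lower by that measure in monocytes, and 6.07% and 6.57% in macrophages.

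**Figure D2:**
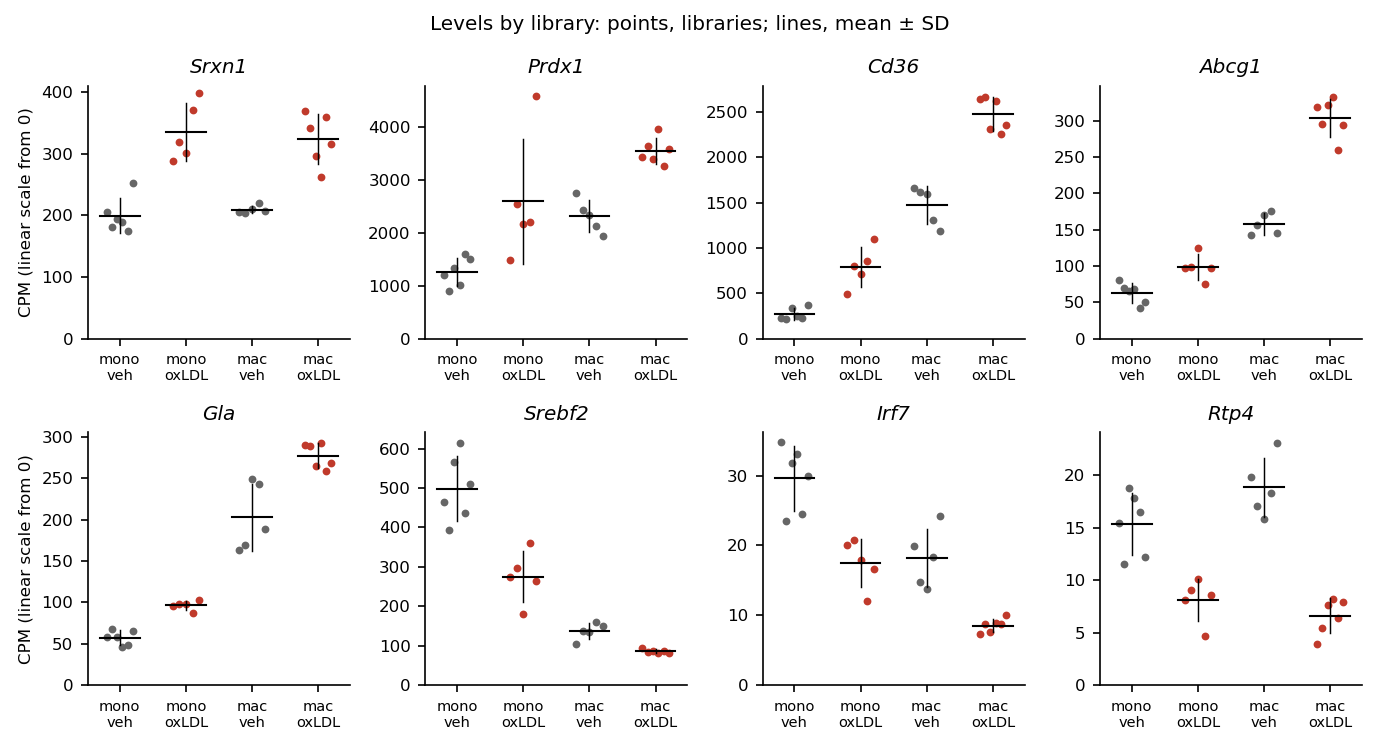
Level in CPM (y axis, linear from 0) of 8 genes in each library, with monocytes and macrophages of the vehicle groups in grey and of the ox-LDL groups in red, and lines for the mean ± SD. Srxn1, Cd36 and Gla rise and Srebf2, Irf7 and Rtp4 fall with no overlap of groups in either cell type, while Prdx1 and Abcg1 overlap by 1 monocyte library.

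The promoters of higher genes were read for the core of the antioxidant response element, to which NRF2 binds with small MAF proteins, spelled TGACNNNGC. RefSeq promoters (250 bases before to 50 after a gene's start, GRCm38.p6) were at hand for 79 of the 116 higher genes and for 10976 of the genes tested. The core stood on either strand in 18 of the 79 (22.8%) and in 17% of the tested genes, or in 20.4% of the higher genes' promoters, 14.4% of those of tested genes and 12.4% of all promoters in the table. A match is a description of letters only. The stretches around the match, in capitals and on the gene's own strand, are shown for 2 antioxidant genes, for a subunit of the lysosomal proton pump and for a mitochondrial import receptor, which all moved higher in both cell types. They lie at chr4:116685426-116685514 (Prdx1, plus strand), chr1:21240424-21240512 (Gsta3, plus), chr16:44139260-44139344 (Atp6v1a, minus) and chr8:126946018-126946106 (Tomm20, minus). In Prdx1 the capitals hold the core read from the other strand.
Prdx1: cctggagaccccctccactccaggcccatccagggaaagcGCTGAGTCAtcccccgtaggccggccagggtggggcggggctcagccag
Gsta3: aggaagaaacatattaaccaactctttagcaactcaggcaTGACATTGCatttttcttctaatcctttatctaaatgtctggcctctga
Atp6v1a: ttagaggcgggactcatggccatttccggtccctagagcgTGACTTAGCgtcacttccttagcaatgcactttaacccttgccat
Tomm20: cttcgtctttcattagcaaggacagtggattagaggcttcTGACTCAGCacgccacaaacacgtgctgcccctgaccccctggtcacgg
The 4 first capitals stand 133, 121, 45 and 145 bases before the start. Srxn1 and Me1 also held a match, but not wholly before the start. That of Srxn1 begins 28 bases after the start, and that of Me1 begins 6 bases before it and runs across it.

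In the lists of lipid uptake, export and storage few genes were called. Of 16 scavenger and lipoprotein receptors Cd36 alone was called and moved the same way, of 13 LXR and efflux genes Abcg1 alone, and of 20 PPAR target and lipid droplet genes Plin2 and Soat1 were called and Plin2 moved the same way. All of these calls were higher with ox-LDL. With 3 library sets as a covariate 2, 3 and 5 genes of these lists were called, again all higher. At an unadjusted p under 0.05, 4 scavenger receptors were higher and none lower in monocytes, and 2 were higher and 2 lower in macrophages. The shares of all genes tested were 5.07% and 5.03% in monocytes, and 6.07% and 6.57% in macrophages.

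Cd36, the fatty acid translocase and scavenger receptor that binds ox-LDL (ENSMUSG00000002944, chr5:17781690-17888801), was at 218, 237 and 371 CPM in vehicle monocytes and at 495, 795, 715, 861 and 1099 CPM with ox-LDL. In macrophages it was at 1662, 1616, 1593, 1307 and 1189 CPM with vehicle and at 2254, 2487 and 2664 CPM with ox-LDL. The groups were apart in both cell types. Its shared log2 fold change was 1.15 ± 0.15 (adjusted p = 1.70e-04), with 1.58 ± 0.22 in monocytes and 0.75 ± 0.10 in macrophages. This difference between cell types was not called (interaction adjusted p = 0.37). Msr1, the class A scavenger receptor, had log2 fold changes of 0.84 in monocytes and 0.02 in macrophages and was not called (adjusted p = 0.176), except with 3 library sets as a covariate (adjusted p = 0.0386).

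Abcg1, which exports cholesterol to high-density lipoprotein, was at 41.7, 66.5 and 80.8 CPM in vehicle monocytes and at 97.1, 98.5, 124, 74.8 and 96.9 CPM with ox-LDL. In macrophages Abcg1 was at 142, 156, 170, 176 and 145 CPM with vehicle and at 260, 307 and 333 CPM with ox-LDL. Ox-LDL monocyte library 10 lay within the vehicle range, and the macrophage groups were apart. The shared log2 fold change of Abcg1 was 0.80 ± 0.10 (adjusted p = 1.70e-04). Abca1, which loads cholesterol onto apolipoprotein A-I and is a target of the same receptors, did not share this pattern. Its log2 fold change was -0.19 ± 0.32 in monocytes and 0.71 ± 0.15 in macrophages, and the additive term was not called (adjusted p = 0.687). The interaction of Abca1 was not called either (adjusted p = 0.635).

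Plin2, the coat protein of lipid droplets, was at 462, 531 and 596 CPM in vehicle monocytes and at 853, 1304, 1626, 960 and 1258 CPM with ox-LDL, with no overlap. In macrophages Plin2 was at 1377, 1239, 1368, 1602 and 1280 CPM with vehicle and at 1314, 1583 and 1879 CPM with ox-LDL, where the groups overlapped. The log2 fold change was 1.19 ± 0.17 in monocytes and 0.21 ± 0.09 in macrophages (shared adjusted p = 0.0103, interaction adjusted p = 0.0655). Soat1, the enzyme that esterifies cholesterol, had log2 fold changes of 0.87 and 0.19 and was called (adjusted p = 0.036) without passing in macrophages. Panx1, a membrane channel that releases ATP, rose by a shared log2 fold change of 0.59 ± 0.09 (adjusted p = 0.00154), with no overlap of groups in either cell type.

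Some genes of the lysosome and of the endoplasmic reticulum (ER) rose in both cell types. Of 36 lysosomal hydrolases, proteases and proton pump subunits 6 were called higher and 5 moved the same way, and 29 had a positive log2 fold change in both cell types. Of all 17466 genes tested 4872 were positive in both. The list's median was 0.29 in monocytes and 0.12 in macrophages. Gla, the alpha-galactosidase of the lysosome (ENSMUSG00000031266, chrX:134588149-134601125), was at 46.4, 57.9 and 67.9 CPM in vehicle monocytes and at 95.1, 98.4, 97.9, 87.0 and 103 CPM with ox-LDL. In macrophages Gla was at 163, 169, 249, 243 and 189 CPM with vehicle and at 259, 278 and 293 CPM with ox-LDL. The groups were apart in both, and the shared log2 fold change of Gla was 0.60 ± 0.09 (adjusted p = 6.30e-04). Lipa, the lysosomal acid lipase that frees cholesterol from its esters, rose by 0.47, and the pump subunits Atp6v1c1, Atp6v1a and Atp6v0d1 rose by 0.49, 0.36 and 0.26. Of 14 genes known from lipid-associated macrophages, Gpnmb and Lgals3 were called higher and Gpnmb moved the same way. The Gpnmb call (log2 fold change 0.69, adjusted p = 0.0491) was lost under 23 of 34 alternatives. Lgals3 had log2 fold changes of 0.81 in monocytes and 0.26 in macrophages, and its call was lost under 3 of 34 alternatives, with an adjusted p of 0.0504 without vehicle macrophage library E, 0.0534 without monocyte libraries 5, 6, 10 and 11 and 0.0596 with limma voom and sample weights.

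Of 23 ER chaperone and stress genes 4 were called higher and moved the same way, all of them chaperones or disulfide isomerases. Hsp90b1, the ER member of the HSP90 family, was at 124, 143 and 154 CPM in vehicle monocytes and at 207, 176, 185, 190 and 171 CPM with ox-LDL. In macrophages Hsp90b1 was at 282, 308, 320, 275 and 256 CPM with vehicle and at 331, 378 and 402 CPM with ox-LDL. No library of one group lay in the range of the other, and the shared log2 fold change of Hsp90b1 was 0.38 ± 0.06 (adjusted p = 0.00198). The chaperone Hspa5 and the isomerases Pdia6 and Pdia3 rose by 0.40, 0.43 and 0.30. Without macrophage libraries A, G, H and K 2 ER genes and 5 lysosomal genes were called.

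Srebf2, the regulator of cholesterol synthesis, fell in both cell types, while few genes of the enzymes passed in monocytes. Of 9 genes of SREBP regulation 4 were called lower, and Srebf2 and Stard4 moved the same way. Of 11 genes from mevalonate to lanosterol 4 were called lower and 1, Mvk, moved the same way. Of 10 genes from lanosterol to cholesterol 2 were called lower and none moved the same way by edgeR with all libraries, 9 being lower in macrophages at an unadjusted p under 0.05 and none in monocytes. By that measure 6.57% of all genes tested were lower in macrophages and 5.03% in monocytes. The medians of the synthesis lists were -0.12 and -0.03 in monocytes and -0.72 in both lists in macrophages. Without macrophage libraries A, G, H and K the numbers called lower in the 3 lists were 2, 1 and 0. Without monocyte libraries 5, 6, 10 and 11 they were 4, 7 and 5, and 1 gene from lanosterol to cholesterol moved the same way.

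Srebf2, which encodes the SREBP2 transcription factor (ENSMUSG00000022463, chr15:82147181-82205379), was at 394, 487 and 614 CPM in vehicle monocytes and at 274, 296, 180, 361 and 264 CPM with ox-LDL. In macrophages Srebf2 was at 104, 138, 135, 160 and 149 CPM with vehicle and at 80.5, 84.3 and 94.6 CPM with ox-LDL. Every ox-LDL library lay below every vehicle library in both cell types. The log2 fold change of Srebf2 was -0.83 ± 0.18 in monocytes, -0.69 ± 0.09 in macrophages and -0.77 ± 0.10 over both (adjusted p = 2.08e-04). Mvk, the mevalonate kinase, had log2 fold changes of -0.36 and -0.54 (shared adjusted p = 0.00849).

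Stard4, a carrier of cholesterol in the cytosol, was at 9.72, 12.8 and 14.4 CPM in vehicle monocytes and at 9.84, 8.99, 8.54, 10.1 and 8.52 CPM with ox-LDL. In macrophages Stard4 was at 11.0, 13.9, 13.6, 12.8 and 12.2 CPM with vehicle and at 3.73, 4.66 and 6.25 CPM with ox-LDL. The monocyte groups overlapped and the macrophage groups did not. The log2 fold change was -0.41 in monocytes and -1.37 in macrophages, and this difference of -0.95 ± 0.18 was called (interaction adjusted p = 0.0444), which makes Stard4 the one gene that moved the same way and yet differed in size by that test.

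Insig1, which holds SREBP in the ER, was called in the additive model and did not pass in monocytes. It was at 31.2, 48.5 and 58.5 CPM in vehicle monocytes (lowest, median and highest) and at 50.6, 45.7, 42.7, 31.9 and 32.5 CPM with ox-LDL, where every ox-LDL value lay within the vehicle range. In macrophages Insig1 was at 67.1, 69.3, 64.2, 63.7 and 69.5 CPM with vehicle and at 22.9, 25.7 and 27.0 CPM with ox-LDL (lowest, median and highest), and the groups were far apart. Its log2 fold change was -0.20 ± 0.16 in monocytes and -1.39 ± 0.06 in macrophages (interaction -1.16 ± 0.19, adjusted p = 0.019). The enzymes Idi1 and Cyp51 had interactions of -1.45 and -1.08 (adjusted p = 0.0354 for both). The additive calls of Insig1, Idi1 and Cyp51 were lost without macrophage libraries A, G, H and K (adjusted p = 0.0919, 0.165 and 0.17), that of Cyp51 also without vehicle macrophage library E (adjusted p = 0.0511), and that of Idi1 under 13 of 33 alternatives. In all 11 genes had a called interaction (0.0630% of those tested), 5 of them among the 246. With 1 library left out this count ran from 1 to 44 and stayed within 1.5 times of 11 only for monocyte libraries 2, 3, 4 and 11 and macrophage library J.

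**Figure D3:**
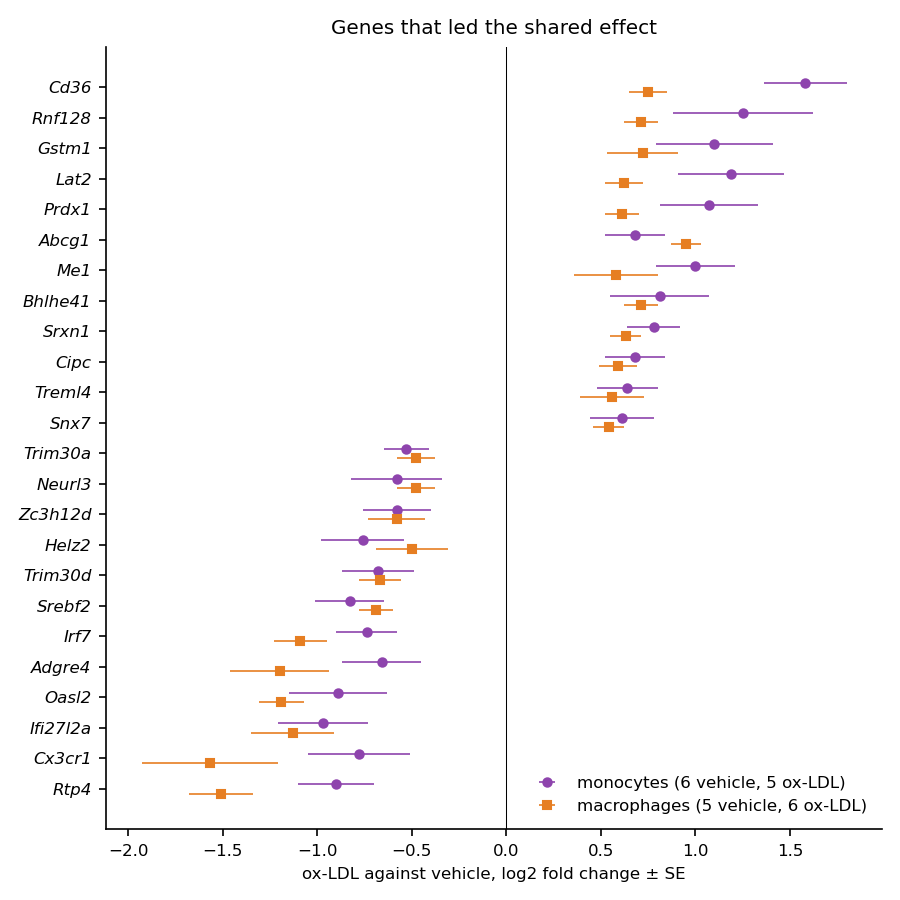
Log2 fold change of ox-LDL against vehicle (x axis) ± SE in monocytes (circles) and macrophages (squares) for the 12 higher and 12 lower genes that moved the same way by the most in the cell type where they moved least. By that measure Cd36 leads the higher genes with 1.58 and 0.75 and Ifi27l2a the lower ones with -0.97 and -1.13. Genes are ordered by the shared log2 fold change, where Cd36 (1.15) and Rtp4 (-1.22) stand at the ends.

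Other genes among the 12 leading higher ones (mean of at least 5 CPM in each cell type) were Rnf128 (a ubiquitin ligase), Lat2 (an adaptor of immune receptors), Bhlhe41 and Cipc (both tied to the circadian clock), Snx7 (a sorting nexin) and Treml4. Their shared log2 fold changes were 0.97, 0.89, 0.74, 0.62, 0.56 and 0.59. Treml4, a receptor of Ly6C-low monocytes, was called with all libraries and none of the other 11 monocyte markers was. With 3 library sets as a covariate 1 of the 12 was called higher and 2 lower, and without monocyte libraries 5, 6, 10 and 11 1 higher and 1 lower. Its level was 90.7, 127 and 163 CPM in vehicle monocytes and 215, 195, 233, 132 and 193 CPM with ox-LDL, with 1 ox-LDL library inside the vehicle range. In macrophages Treml4 was at 48.0, 44.5, 34.6, 37.8 and 52.5 CPM with vehicle and at 48.6, 54.8 and 98.2 CPM with ox-LDL, where the groups overlapped. Among genes named after their values were seen, Creg1, a lysosomal glycoprotein, rose by a shared log2 fold change of 0.53 ± 0.07 (adjusted p = 3.83e-04), Ednrb, the endothelin receptor B, by 1.36 ± 0.30, and Hal, the histidine ammonia-lyase, by 1.26 ± 0.28. At the other end of the calls, Wsb2 and Gstm2 lay just inside the threshold (adjusted p = 0.0498 for both) and Col17a1 just outside it (adjusted p = 0.0516).

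Some interferon-stimulated genes fell in both cell types. Of 34 type I interferon-stimulated genes 18 were called lower and none higher, 11 of them moved lower in both cell types, and 30 had a negative log2 fold change in both. Of all 17466 genes tested 5021 were negative in both. The list's median was -0.38 in monocytes and -0.78 in macrophages. Called lower, whether or not they also moved the same way, were the transcription factors Irf7 and Irf9, the Ifit genes, which bind foreign RNA, the oligoadenylate synthetase family members Oas2 and Oasl2, the ubiquitin-like modifier Isg15, and the sensors Ddx58, Dhx58 and Zbp1. Oas2 and Ddx58 did not move the same way, and of the Ifit genes only Ifit3 and Ifit3b did. Stat2, which carries the receptor signal, was not called, with a log2 fold change of 0.02 in monocytes and -0.49 in macrophages. Without macrophage libraries A, G, H and K 9 of the 34 were called lower, and without monocyte libraries 5, 6, 10 and 11 20 were.

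Irf7, the regulator that amplifies the type I interferon response (ENSMUSG00000025498, chr7:141262706-141266481), was at 23.5, 30.9 and 34.8 CPM in vehicle monocytes and at 20.1, 20.8, 17.9, 12.1 and 16.6 CPM with ox-LDL. In macrophages Irf7 was at 19.9, 14.8, 13.7, 18.3 and 24.2 CPM with vehicle and at 7.33, 8.71 and 10.0 CPM with ox-LDL. The ox-LDL libraries lay below the vehicle libraries in both cell types. The log2 fold change of Irf7 was -0.74 ± 0.16 in monocytes, -1.09 ± 0.14 in macrophages and -0.92 ± 0.11 over both (adjusted p = 1.35e-04).

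Rtp4, an interferon-induced chaperone of receptor transport (ENSMUSG00000033355, chr16:23520291-23614222), was at 11.5, 16.0 and 18.8 CPM in vehicle monocytes and at 8.09, 9.03, 10.1, 4.71 and 8.58 CPM with ox-LDL. In macrophages Rtp4 was at 19.8, 17.1, 15.8, 18.3 and 23.1 CPM with vehicle and at 3.91, 6.99 and 8.24 CPM with ox-LDL. There was again no overlap, and the shared log2 fold change of Rtp4 was -1.22 ± 0.15 (adjusted p = 1.35e-04). Ifit3 and its near-identical copy Ifit3b fell by 1.58 and 1.70 on the log2 scale, at levels under 10 CPM in every library, and how reads shared by the pair were counted is not known. Isg15 was at 15.7, 21.5 and 27.7 CPM in vehicle monocytes and at 16.7, 16.8, 20.2, 12.6 and 11.4 CPM with ox-LDL, so the monocyte groups overlapped. In macrophages Isg15 was at 5.11, 3.99, 3.34, 4.04 and 5.43 CPM with vehicle and at 1.47, 2.48 and 2.83 CPM with ox-LDL, which were apart (shared log2 fold change -0.65 ± 0.13, adjusted p = 0.0133). Oasl2, Ifi27l2a, Trim30a and Trim30d fell by 1.05, 1.06, 0.52 and 0.68 on the log2 scale.

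**Figure D4:**
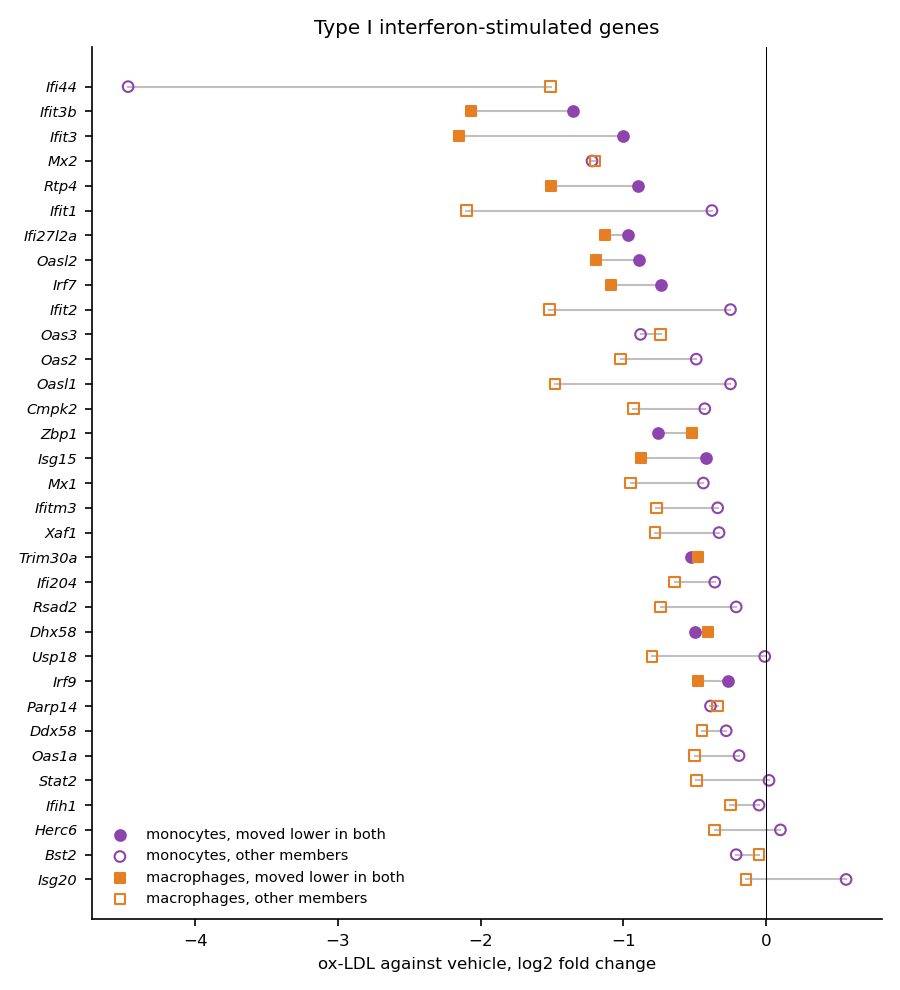
Log2 fold change of ox-LDL against vehicle (x axis) for 33 of the 34 type I interferon-stimulated genes in monocytes (circles) and macrophages (squares), with the 11 that moved lower in both filled. All 33 lie below 0 in macrophages and 30 lie below 0 in both, with the median of the 34 at -0.38 in monocytes and -0.78 in macrophages. Of all 17466 genes tested 5021 were negative in both.

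The promoters of the lower genes were read for the core of the interferon-stimulated response element, spelled as GAAA, any 2 bases and GAAA again, which was added to the search once the lower genes were known. It stood on either strand in 11 of the 59 lower genes with a promoter in the table (18.6%) and in 3.94% of the 10976 tested genes with one, or in 17.6% of the lower genes' promoters, 3.26% of those of tested genes and 3.44% of all promoters. Among the higher genes it stood in 1 of 79. The antioxidant core stood in 9 of the 59 lower genes (15.3%). Matches are shown for 4 genes of different families, with the capitals marking the core and running on where matches overlap. They lie at chr4:156200835-156200936 (Isg15, minus strand), chr19:34583333-34583456 (Ifit3, plus), chr5:120887614-120887671 (Oas1g, minus) and chr11:48871421-48871490 (Irgm1, minus).
Isg15: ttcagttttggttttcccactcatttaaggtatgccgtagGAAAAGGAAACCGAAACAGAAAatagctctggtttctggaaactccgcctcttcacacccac
Ifit3: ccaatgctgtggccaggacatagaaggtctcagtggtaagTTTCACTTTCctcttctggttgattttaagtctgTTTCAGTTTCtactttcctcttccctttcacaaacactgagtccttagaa
Oas1g: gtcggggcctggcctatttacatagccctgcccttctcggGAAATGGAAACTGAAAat
Irgm1: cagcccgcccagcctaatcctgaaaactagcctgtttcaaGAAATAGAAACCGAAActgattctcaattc
In Ifit3 both matches are read from the other strand, and in Isg15 the match nearest the far end begins 78 bases before the start. Oas1g, an oligoadenylate synthetase outside the list, moved lower in both cell types by a shared log2 fold change of -0.73 ± 0.12 (adjusted p = 0.00154).

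Some genes induced by interferon-gamma and some of antigen presentation also fell in both cell types. Of 14 interferon-gamma-induced GTPases 3 were called lower, and Ifi47 and Irgm1 moved the same way with shared log2 fold changes of -0.51 and -0.30. The Irgm1 call (adjusted p = 0.0415) was lost under 16 of 34 alternatives. Of 10 MHC class II genes 3 were called lower, and H2-DMa, which loads peptide, and H2-Oa, which restrains it, moved the same way. Mean levels of H2-Oa were 46.2 CPM with vehicle and 32.2 CPM with ox-LDL in monocytes. In macrophages they were only 0.344 and 0.0861 CPM and rest on few reads. H2-DMa was at 70.6, 88.2 and 107 CPM in vehicle monocytes and at 78.6, 63.2, 65.5, 57.2 and 77.3 CPM with ox-LDL, which overlapped. In macrophages H2-DMa was at 48.9, 36.3, 35.2, 34.0 and 36.4 CPM with vehicle and at 22.1, 24.9 and 29.2 CPM with ox-LDL, which did not. The list's median was -0.27 in monocytes and -1.08 in macrophages. Neither list held a call by edgeR without macrophage libraries A, G, H and K, where the adjusted p of Ifi47 was 0.0765 and that of H2-DMa 0.0633.

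Markers of other cells that carry MHC class II were read beside these genes. The median log2 fold change of 10 B cell markers was -0.45 in monocytes and -0.76 in macrophages, and that of 12 dendritic cell markers -0.15 and -0.71. No marker of these lists was called by edgeR with all libraries, and 1 dendritic cell marker was called lower with 3 library sets as a covariate. In the separate fits 1 of each list was lower in monocytes, and 1 B cell marker in macrophages, at an unadjusted p under 0.05. By that measure 5.03% of all genes tested were lower in monocytes and 6.57% in macrophages. The summed dendritic cell markers were 8554 to 13712 CPM in vehicle and 7861 to 11346 CPM in ox-LDL monocytes, and 438 to 524 and 411 to 498 CPM in macrophages. The summed B cell markers were 603 to 2265 and 629 to 1767 CPM in monocytes and 53.9 to 68.4 and 49.3 to 63.5 CPM in macrophages, where Pax5 was at 0 in both groups. The ranges of vehicle and ox-LDL libraries overlapped for both sums in both cell types. Their part in the lower genes was not tested.

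Of 13 chemokine receptors 3 were called lower, and Cx3cr1, the fractalkine receptor, moved the same way. It was at 42.7, 86.7 and 121 CPM in vehicle monocytes and at 32.2, 58.1, 53.9, 48.9 and 44.7 CPM with ox-LDL, which overlapped. In macrophages Cx3cr1 was at 209, 187, 180, 261 and 453 CPM with vehicle and at 37.2, 76.0 and 161 CPM with ox-LDL, which were apart. The shared log2 fold change was -1.19 ± 0.26 (adjusted p = 0.0177). Ccr2, the receptor for monocyte recruitment, had log2 fold changes of -0.40 and -1.20 and was not called (adjusted p = 0.0731), although it was called lower under 11 of 34 alternatives (lowest adjusted p = 7.69e-04). Siglec1, the sialoadhesin of macrophages, fell by 0.62 on the log2 scale over both, with -0.96 in monocytes and -0.30 in macrophages. The monocyte change lay at low levels (means 3.71 CPM with vehicle and 1.87 CPM with ox-LDL, against 106 and 86.1 CPM in macrophages). Adgre4, an adhesion receptor of macrophages, fell by 0.94 over both.

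**Figure D5:**
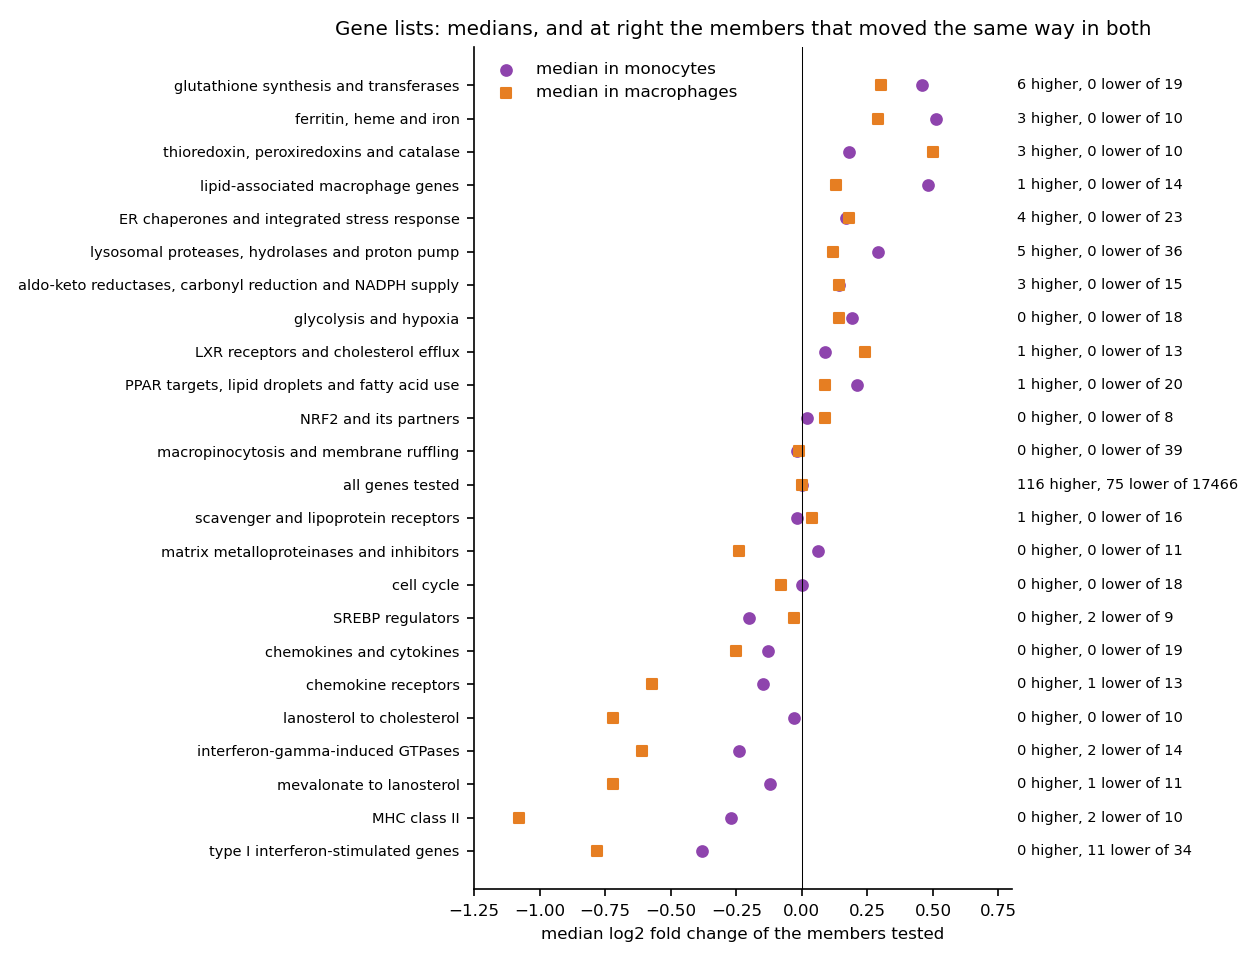
Median log2 fold change (x axis) of the tested members of 23 gene lists and of all genes tested, in monocytes (circles) and macrophages (squares), with the number of members that moved the same way at right. The antioxidant lists lie to the right of 0 and the interferon list and MHC class II to the left in both cell types.

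No member was called by edgeR with all libraries in 5 further lists beside that of NRF2 and its partners. Among 39 genes of macropinocytosis and membrane ruffling 4 were higher and 1 lower in monocytes at an unadjusted p under 0.05, and 2 were higher and 4 lower in macrophages, with medians of -0.02 and -0.01. The shares of all genes tested were 5.07% higher and 5.03% lower in monocytes, and 6.07% and 6.57% in macrophages. Pak1, a kinase of membrane ruffling, had log2 fold changes of -0.06 and -0.31 (adjusted p = 0.278). Among 19 chemokines and cytokines 1 was higher in monocytes and 2 were lower in macrophages by the same measure, among 11 matrix metalloproteinases and inhibitors 2 higher and 1 lower, among 18 glycolysis and hypoxia genes 2 and 6 higher, and among 18 cell cycle genes 1 higher and 1 lower in monocytes and none in macrophages. With 3 library sets as a covariate the numbers called higher and lower were 2 and 3 for macropinocytosis, 2 and 2 for chemokines and cytokines, 2 and 1 for metalloproteinases, 3 and 0 for glycolysis and 0 and 0 for the cell cycle. Without monocyte libraries 5, 6, 10 and 11 4 glycolysis and hypoxia genes were called higher and 3 moved the same way. Mmp12, the macrophage elastase, had log2 fold changes of 1.35 ± 0.18 in monocytes and 0.12 ± 0.31 in macrophages and was not called in the additive model (adjusted p = 0.13), although it was under 3 of 34 alternatives (lowest adjusted p = 0.00655).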

How the data were processed

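Polyadenylated RNA of 22 libraries was made into cDNA from 10 ng with a SMARTer Ultra Low kit, per the labels' protocols. The authors aligned reads to GRCm38 with STAR 2.7.9a and counted them with featureCounts 2.0.3 (Subread), per the submitters' processing notes. Their deposited tables give whole-number counts of reads per gene for 55487 genes, without normalization, of which 55141 have a symbol in the reference table. Other deposited columns were not used. The strand setting, the treatment of reads with several matches and the annotation release are not known from these sources, so antisense and overlapping genes and near-identical copies are uncertain.

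Counts were fitted with edgeR 4.0.16 in R 4.3.3 (TMM factors, filterByExpr on the 4 groups, quasi-likelihood F test, 2-sided, Benjamini-Hochberg over all genes tested), with the additive model over all libraries, separate fits per cell type and an interaction contrast of the 4 group means. The fits were tested on simulated data. Alternatives used DESeq2 1.42.0, limma 3.58.1, other scalings and filters, covariates for library sets and leaving out libraries. Standard errors come from the F statistic, and amplified reads can be copies of one molecule. The labels give no batch.

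Named genes were the 12 higher and 12 lower with the largest smaller-of-both change among genes moving the same way (at least 5 CPM in each cell type, no gene models or pseudogenes), up to 3 such members of each gene list or otherwise its most abundant member, preset genes, and the 3 called genes with the lowest interaction p in each direction. The values of 2 members of the lists are not reported here. Members, lists and preset genes were chosen with earlier results of these data known. Promoter sequences are from RefSeq (GRCm38.p6), matched by symbol. The sterol response element core TCACNCCAC and the direct repeats bound by PPAR and LXR were searched too and stood in at most 2 genes of either direction.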

Additional observations from a re-analysis of the deposited data

Results flagged for a closer look

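In Idi1, Insig1, Cyp51 and Stard4 the difference of the log2 fold change (macrophages minus monocytes) passed the interaction test at an adjusted p under 0.05. The differences were -1.45 for Idi1, -1.16 for Insig1, -1.08 for Cyp51 and -0.95 for Stard4, all with the greater fall in macrophages.

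Single libraries stood away from the rest of their group in 14 of 272 groups of values of the 68 named genes examined (5.15%), where chance gives about 1 in 20. In vehicle monocytes these were library 4 for Atp6v1c1 (164 CPM), library 2 for Bhlhe41 (7.13 CPM), Hspa5 (760 CPM) and Snx7 (8.34 CPM), library 5 for Cipc (22.6 CPM), library 6 for Gpnmb (2278 CPM) and library 1 for Hmox1 (1974 CPM). Ox-LDL monocyte library 11 stood apart for Esd (1032 CPM). In vehicle macrophages library A stood apart for Esd (416 CPM), H2-DMa (48.9 CPM) and Pdia6 (367 CPM), and library E for Me1 (10.4 CPM). With ox-LDL they were macrophage library J for Snx7 (33.8 CPM) and library K for Trim30d (7.71 CPM).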

How the results depend on the processing

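No paired analysis was possible because the groups share no replicate numbers in the labels. Library sets read from the data, which span both treatments, served as a covariate in its place. The number of genes called over both cell types was 246, and 660 with DESeq2, 503 with limma voom and sample weights, 156 without a filter on low counts, 640 with monocyte libraries 5, 6, 10 and 11 as a covariate, 910 with 3 library sets per cell type as a covariate, 392 without those monocyte libraries and 123 without macrophage libraries A, G, H and K. In that order of settings, genes moving the same way numbered 350 with DESeq2, 125 without the filter, 410 and 531 with the covariates and 110 without the macrophage libraries, against 191. With an adjusted p under 0.05 asked of each cell type they numbered 2, and with groups apart in both 31 (0.177% of the genes tested). Macrophage calls were 326, and 696 with DESeq2, 775 with library sets and 131 without the macrophage libraries. Monocyte calls were 4, and 160 with DESeq2, 7 with limma voom, 25 with sample weights, 9 without the filter, 10 with a filter at 5 CPM, 106 and 223 with the covariates, and 0 by edgeR without the 4 monocyte libraries (2742 genes at an unadjusted p under 0.05). Interactions called were 11, and 5 with total counts, 60 with DESeq2, 33 and 85 with the covariates, 129 without the monocyte libraries and 1 without the macrophage libraries. Leaving out 1 library gave 150 to 306 calls over both, 123 to 225 moving the same way, 140 to 328 in macrophages, 0 to 8 in monocytes and 1 to 44 interactions. Adam8, not called at a log2 fold change of -0.03, turned to 0.04 without macrophage libraries A, G, H and K and to 0.01 without vehicle macrophage library D (range with 1 library left out -0.06 to 0.01). The causes were not tested. The covariate with library sets and the exclusion of the macrophage libraries were chosen after seeing the data. Levels near or below 1 CPM rest on few reads, as in macrophages those of Ifit3b (means 2.00 CPM with vehicle and 0.472 CPM with ox-LDL) and H2-Oa (0.344 and 0.0861 CPM).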
